A study of Mus musculus with 23 samples.

Results

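The 3 loci of miR-124 (mir-124-1, mir-124-2 and mir-124-3) were followed through small RNA libraries of 23 mouse retinas. They are 3 of the 903 mature rows in the deposited count table, chosen by locus name alone. Retinas came from mice at postnatal day 90, and each library is 1 retina. The heterozygous knock-in line P23H+/- KI carries a rhodopsin with the P23H substitution, a model of retinitis pigmentosa in which rod photoreceptors degenerate. P23H+/- KI retinas fell into 4 groups, which were treated with the mouse rhodopsin gene (mouse gRho, 11 libraries), treated with the human rhodopsin gene (human gRHO, 3 libraries), treated with saline (2 libraries) or left without injection (uninjected P23H, 5 libraries). The genes were given in their genomic form, in DNA nanoparticles. They were set beside untreated wild-type C57B retinas (WT, 2 libraries). Titles read as mouse and eye gave 7 mouse gRho, 2 human gRHO, 1 saline, 3 uninjected P23H and 2 WT mice, 15 in all, and both eyes were sequenced in 8 of them. That reading is an inference from the titles. No leading title number recurs between groups, and should these numbers mark cages, then cage and treatment cannot be told apart.

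A miRNA locus is transcribed as a long primary transcript, cut to a hairpin precursor and cut again to a mature strand that guides Argonaute to messenger RNAs through its seed. miR-124 is a hallmark miRNA of neurons, found through the central nervous system and in all neuronal layers of the retina, where it represses transcripts of non-neuronal and progenitor programmes. The mouse genome holds the same mature miR-124 at each of the 3 loci. In the RefSeq annotation (GRCm38.p6), Mir124a-1 lies inside the long noncoding host gene Mir124a-1hg, also called Rncr3 (retinal noncoding RNA 3), and Mir124a-2 lies inside the host gene Mir124-2hg. Mir124a-3 lies inside neither host gene. No genome build for the count table is given in the sources used here. These names describe neighbours and no position is given. RefSeq's table of mature sequences, as supplied, matched 0 of the 3 members, and their sequences are not shown.

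The mature sequences of the loci that the members are set against below follow, from RefSeq (GRCm38.p6), 5′ to 3′ and with the seed (bases 2 to 8) in capitals. The miR-9 strands are shown because they are identical at 3 loci, as in miR-124. miR-182 and miR-183, of photoreceptors, are shown because their rows followed mir-124-1 most closely. The deposited rows name a locus and no strand, so both strands of each are given.
mmu-miR-9-5p: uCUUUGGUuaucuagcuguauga
mmu-miR-9-3p: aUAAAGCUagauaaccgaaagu
mmu-miR-182-5p: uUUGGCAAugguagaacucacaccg
mmu-miR-182-3p: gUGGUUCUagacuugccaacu
mmu-miR-183-5p: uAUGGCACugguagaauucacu
mmu-miR-183-3p: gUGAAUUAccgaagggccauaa
The 6 strands carry 6 different seeds.

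The depth was 5968388 to 16048954 mature miRNA reads per library (median 9939390), and levels are given in CPM, counts scaled to those reads. The deposited mature rows add up to between 10.4% and 19.5% of those reads (median 13.4%), so a row's CPM is the level of the deposited row and not that of all reads of the miRNA. Ribosomal RNA made up 3.00% to 6.20% of aligned reads in 6 libraries and 0.20% to 0.88% in the other 17. The 6 rRNA-rich libraries were uninjected P23H mouse 2 (left) and mouse 3 (both eyes), and mouse gRho mice 2 (left), 3 (right) and 6 (left). No WT, saline or human gRHO library was among them. Uninjected mice 2 and 3 had no other library, so ribosomal RNA and group are partly confounded in comparisons with uninjected P23H. The summed level of the 3 members was 97.3 to 377 CPM (median 294) in those 6 and 10.6 to 498 CPM (median 314) in the other 17. In 65 of the 337 rows that reached 30 reads, counts jumped between separate levels across libraries (two-level rows), and 0 of the 3 members were among them.

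The 3 mature rows took equal shares of the reads. Over 23 libraries, mir-124-1 had 22635 reads, mir-124-2 had 22612 and mir-124-3 had 22666, shares of 33.3%, 33.3% and 33.4%. The chi-square against an equal split was 0.88 per degree of freedom (46 degrees of freedom), so the rows differed by no more than counting noise. The exact 95% interval of the share held the equal share in 23 of 23 libraries for mir-124-1, in 22 for mir-124-2 and in 23 for mir-124-3. The 3 rows therefore count as 1 measurement of miR-124 here, and their values do not separate the loci. Identical mature strands did not give equal rows at every locus group. The rows of mir-9-1, mir-9-2 and mir-9-3, another miRNA of neurons and neural progenitors, took 35.9%, 35.9% and 28.2% of their reads, with a chi-square of 565 per degree of freedom against an equal split. mir-7a-1 and mir-7a-2, which share a 5p strand, took 92.3% and 7.73%.

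The level of miR-124 spanned a 47.1-fold range among libraries. mir-124-1 ranged from 4.27 to 164 CPM with a median of 105 CPM (42 to 1652 reads). mir-124-2 ranged from 3.46 to 171 CPM with a median of 107 CPM, and mir-124-3 from 2.85 to 163 CPM with a median of 103 CPM. As single rows, the members stood at ranks 57 to 59 of 903 mature rows by mean CPM, behind mir-9-1 at rank 6, mir-183 at rank 23 and mir-182 at rank 51. Each row holds a share of 1 measurement, so these ranks are not that of miR-124 as a whole. The sum of the 3 rows had a median of 314 CPM over the libraries, against 469 CPM for mir-183 and 130 CPM for mir-182.

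**Figure D1:**
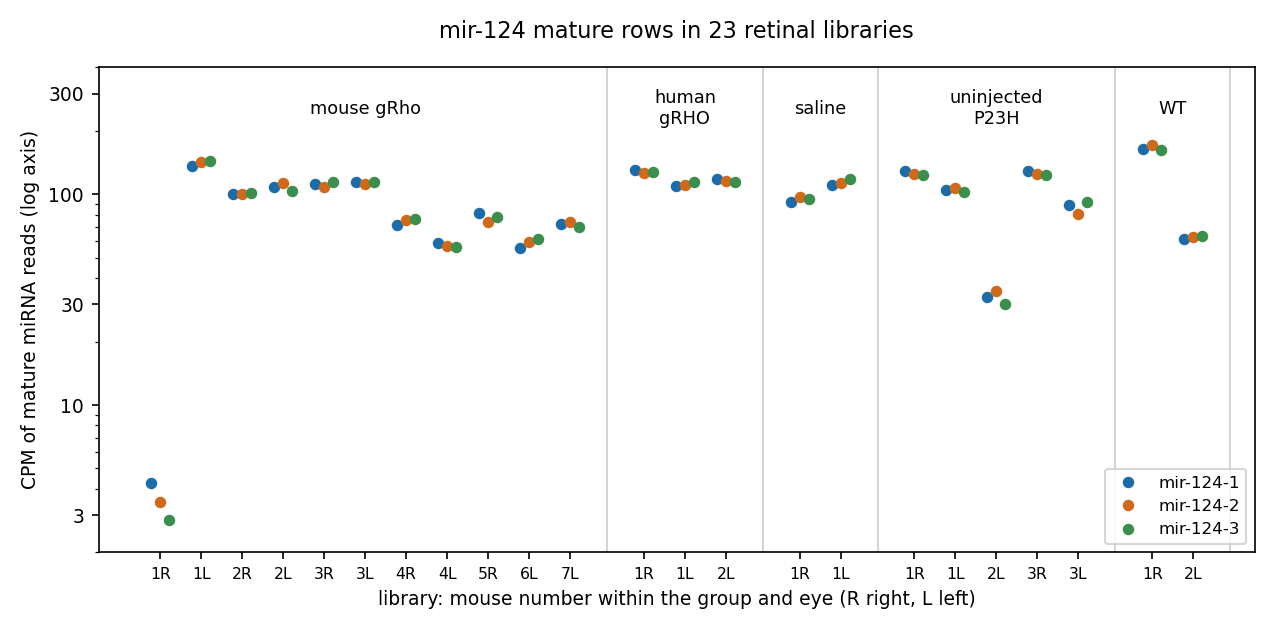
CPM of the 3 mir-124 mature rows (colours, log axis) in each of 23 libraries, ordered by group, mouse and eye; each point is 1 row in 1 library. The rows sit together in every library, between 2.85 and 171 CPM, and the right eye of mouse gRho mouse 1 lies below all others.

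Summed over the 3 rows, mouse gRho mice had 218, 309, 338, 195, 234, 176 and 216 CPM (mice 1 to 7). The human gRHO mice had 361 and 348 CPM, and the saline mouse had 312 CPM. Uninjected P23H mice had 346, 97.3 and 318 CPM, and WT mice had 498 and 187 CPM. WT held the highest of 15 mice and also the thirteenth in that order, and each of the other groups overlapped its range.

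As group means, mouse gRho had 241 ± 60.1 CPM (SD, n = 7 mice), human gRHO 354 ± 8.76 CPM (n = 2), saline 312 CPM (n = 1), uninjected P23H 254 ± 136 CPM (n = 3) and WT 343 ± 220 CPM (n = 2). For the single row mir-124-1, mouse gRho had 80.2 ± 21.0 CPM, human gRHO 120 ± 1.34 CPM, saline 101 CPM, uninjected P23H 86.1 ± 46.6 CPM and WT 113 ± 72.7 CPM, with the same n. From high to low, both orders were human gRHO, WT, saline, uninjected P23H and mouse gRho. No neighbours in that order differed past the threshold of the test below. In whole retina, fewer cells of a type and less RNA per cell cannot be told apart.

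The right eye of mouse gRho mouse 1 held 42, 34 and 28 reads of the 3 rows, and its left eye held 1359, 1420 and 1423. The summed level was 10.6 CPM in the right eye (exact 95% interval of the counts 8.65 to 12.8) and 423 CPM in the left eye, which was 39.9-fold that of the right. No other pair of eyes was far apart. In the other 7 mice the right eye differed from the left by -0.26 to 0.53 (log2), with the right eye higher in 4 of the 8 mice overall. The second lowest library was the left eye of uninjected P23H mouse 2, with 97.3 CPM, and the third lowest had 172 CPM.

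Photoreceptor loci were low beside miR-124 in both of these libraries. In the right eye of mouse gRho mouse 1, mir-183 stood at 42.4 CPM, against 641 CPM in the left eye. mir-182 stood at 6.92 CPM in the right eye, against 197 CPM in the left, and mir-96, the remaining member of that cluster, at 3.56 against 105 CPM. The list of 3 photoreceptor loci summed to 52.9 CPM there and to 198 CPM in uninjected P23H mouse 2, the lowest values of 23 libraries. Over all libraries the list ranged from 52.9 to 943 CPM in mouse gRho, 699 to 821 CPM in human gRHO, 691 to 769 CPM in saline, 198 to 805 CPM in uninjected P23H and 306 to 1101 CPM in WT.

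Neuronal loci other than miR-124 were unequally low in the right eye of mouse gRho mouse 1. mir-9-1 measured 895 CPM in that eye, against 4161 CPM in the left eye and a median of 3305 CPM. Relative to the median of 23 libraries on the log2 scale, mir-9-1 was at -1.88, mir-129-2 at -3.34, and the members were at -4.46, -4.76 and -4.95. The two-level row of mir-218-2 was lower still, with 0.305 CPM in the right eye, against 393 CPM in the left. Some brain-enriched rows were high there. mir-7b stood at 34.0 CPM in the right eye, against 3.52 CPM in the left, and mir-219a-2, a miRNA of oligodendrocytes, at 55.7 against 22.1 CPM. mir-204, of pigment epithelium and Mueller glia, was level between the eyes at 125 and 120 CPM, right and left.

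Some of the marker lists of tissue other than neural retina were at their highest in the same eye, and others were not. Of the 9 loci of surface epithelium, lens and cornea, 7 could be summed (mir-200c and mir-429 were two-level), and none of the 7 was at 0. They reached 322 CPM in the right eye of mouse gRho mouse 1, the highest of 23 libraries. Over all libraries they ranged from 80.1 to 322 CPM in mouse gRho, 90.2 to 129 CPM in human gRHO, 92.2 to 101 CPM in saline, 112 to 146 CPM in uninjected P23H and 68.5 to 83.4 CPM in WT. mir-205, of stratified epithelium, had 51.8 CPM in the right eye, against 18.5 CPM in the left, and mir-184, of cornea and lens, had 32.5 against 7.24 CPM. The 3 vessel loci were also highest of all libraries in that eye, at 2888 CPM, and second highest in uninjected P23H mouse 2, at 2490 CPM. The 3 leukocyte loci that could be summed (mir-155 was two-level) had 67.7 CPM in that eye, the highest of all libraries, and 49.4 CPM in uninjected P23H mouse 2. The 2 red blood cell loci in the table had 1366 CPM in that eye, within 77.9 to 2285 CPM over all libraries. The 3 muscle loci that could be summed had 878 CPM there, within 67.4 to 1149 CPM. The share of miRNA reads that the deposited table counts as crossmapped was 17.9% in that eye and 15.2% in uninjected P23H mouse 2, within a range of 5.52% to 17.9%. The part of these differences in the miR-124 level was not tested.

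**Figure D2:**
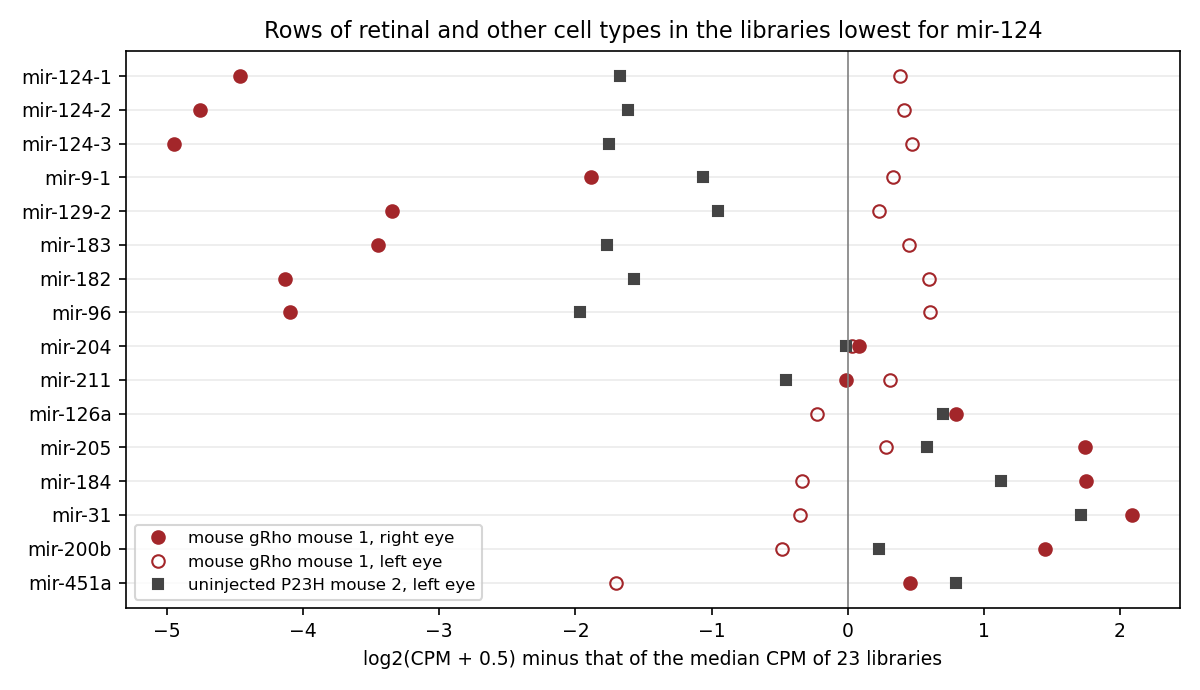
Level of 16 named rows in both libraries lowest for miR-124 and in the left eye of mouse gRho mouse 1, as log2(CPM + 0.5) minus that of the median CPM of 23 libraries; each point is 1 row in 1 library. In the right eye of mouse gRho mouse 1 the mir-124 rows are at -4.46 to -4.95 and mir-182 at -4.14, while mir-204 is at 0.09 and mir-205 at 1.75.

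The precursor rows, unlike the mature rows, differed by locus. They held 71 reads for mir-124-1, 574 for mir-124-2 and 146 for mir-124-3 over 23 libraries, or 8.98%, 72.6% and 18.5% of 791 reads. The exact 95% intervals of these shares were 7.08% to 11.2%, 69.3% to 75.7% and 15.8% to 21.3%, and they cover counting error only. mir-124-2 had the most precursor reads of the 3 loci in 21 of the 22 libraries that held any, and it had 8.08-fold as many reads as mir-124-1 over all libraries. How the authors defined a precursor read is not given in the sources used here. The locus of mir-124b lies in the same interval as mir-124-2 in the annotation, so reads of this pair are uncertain as separate counts. mir-124b had 41 mature and 3 unannotated reads in all 23 libraries. The stemloop class held 8 reads of mir-124-1.

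**Figure D3:**
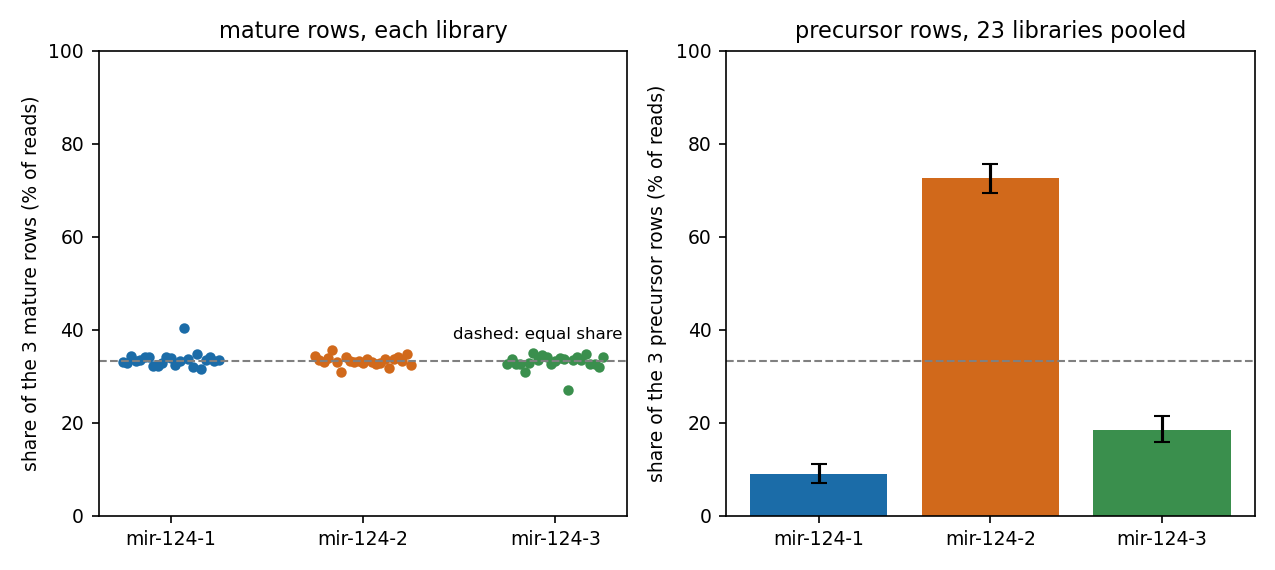
Left, the share of each mature row in the reads of the 3 rows, 1 point per library; right, the share of each precursor row in the 791 precursor reads of 23 libraries, with exact 95% binomial intervals. The mature rows lie at an equal share (dashed) and the precursor rows do not, with mir-124-2 at 72.6%.

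Precursor reads were few beside mature reads, with a median of 1.16 per 100 mature reads of the members (0 to 2.44 across libraries). Precursor rows add up to the precursor total in 23 of 23 libraries, and mature rows to 10.4% to 19.5% of mature reads. The ratio is therefore one of deposited rows and not of all reads of the miRNA. In the right eye of mouse gRho mouse 1 the precursor reads numbered 0, which allows up to 0.305 CPM (3 counts). At the median ratio, the 104 mature reads of that library correspond to 1.21 precursor reads, so the ratio in this eye was not measurable. Per mouse, summed precursors had 3.41 ± 1.23 CPM in mouse gRho (SD, n = 7), 4.25 ± 0.69 CPM in human gRHO (n = 2), 4.04 CPM in saline (n = 1), 2.96 ± 1.24 CPM in uninjected P23H (n = 3) and 3.03 ± 1.29 CPM in WT (n = 2). Mouse gRho mice spanned 1.87 to 5.18 CPM, which covered the values of human gRHO, saline and WT. Of the precursor rows, mir-124-2 and mir-124-3 passed the filter of 10 counts in 3 mice, and neither passed the threshold in any of 10 comparisons (edgeR, lowest adjusted p = 0.59). Of the 37 precursor rows tested, 1 was called for uninjected P23H against WT and 1 for mouse gRho against WT (2.7% each), and 0% in the other 8 comparisons. For uninjected P23H against WT the mir-124-2 precursor differed by -0.32 on the log2 scale (SE 0.42, adjusted p = 0.61) and the mir-124-3 precursor by 0.41 (SE 0.96, adjusted p = 0.74). For mouse gRho against WT they differed by -0.013 (SE 0.37) and 1.08 (SE 0.85, adjusted p = 0.59).

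The comparison of uninjected P23H with WT asks whether miR-124 differs with the rhodopsin mutation. For mir-124-1, uninjected P23H mice had 117, 32.5 and 109 CPM, and WT mice had 164 and 61.6 CPM. The ranges overlapped. The log2 fold changes of the 3 rows were -0.60, -0.68 and -0.65 (SE 0.48 to 0.50), and 0 of 3 passed an adjusted p of 0.05 (edgeR quasi-likelihood, adjusted p = 0.53 to 0.60), beside 0.224% of the 447 rows tested. The median over all rows was 0.06. Of the 447 rows, 71 had an unadjusted edgeR p under 0.05, and DESeq2 called 32. The 95% interval for mir-124-1 ran from -1.69 to 0.49. The direction rested on 1 WT retina, since without WT mouse 1 the median of the 3 rows was 0.10.

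The comparison of mouse gRho with uninjected P23H asks whether miR-124 differs with the mouse rhodopsin gene. mir-124-1 in mouse gRho mice had a lowest value of 55.6, a median of 72.2 and a highest value of 114 CPM (n = 7), and uninjected P23H mice had 117, 32.5 and 109 CPM. Uninjected mouse 2 lay below all mouse gRho mice, and uninjected mouse 1 above all of them. The log2 fold changes were 0.06, 0.09 and 0.11 (SE 0.37 to 0.38, adjusted p = 0.98), with 0 of 3 rows past the threshold beside 0.224% of all rows. Among all rows, 25 had an unadjusted edgeR p under 0.05, and DESeq2 called 6. The interval for mir-124-1 ran from -0.77 to 0.89. The sign was not stable. The median of the 3 rows was -0.28 without uninjected mouse 2, -0.0082 without mouse gRho mouse 3, and -0.075 with every mouse kept and no TMM factors (scaling factors that correct for the makeup of a library). Without both libraries lowest for miR-124, the summed level was 270 ± 89.7 CPM in mouse gRho (SD, n = 7) and 332 ± 19.7 CPM in uninjected P23H (n = 2).

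Human gRHO mice were set against uninjected P23H in the same way. mir-124-1 had 121 and 119 CPM in human gRHO mice, against 117, 32.5 and 109 CPM in uninjected P23H mice. Both human gRHO values lay above the uninjected values for mir-124-1 and mir-124-3 but not for mir-124-2, and 9.84% of all rows were higher without overlap. The log2 fold changes were 0.57, 0.57 and 0.59 (SE 0.48 to 0.50, adjusted p = 0.95), and 0 of 3 rows passed the threshold. No row of the 447 was called (0%) by edgeR, with 21 at an unadjusted p under 0.05 and 6 called by DESeq2. The interval for mir-124-1 ran from -0.52 to 1.66. Without uninjected mouse 2 the median of the 3 rows was 0.19.

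The comparison of human gRHO with mouse gRho sets both rhodopsin genes side by side. The summed level was 361 and 348 CPM in human gRHO mice and 176 to 338 CPM in mouse gRho mice. The groups did not overlap for the sum, nor for mir-124-1 and mir-124-2, and 3.8% of all rows were higher without overlap in this comparison. This separation rested on the right eye of mouse gRho mouse 1, since without it that mouse had 423 CPM, above both human gRHO mice. The difference missed the threshold, with log2 fold changes of 0.51, 0.48 and 0.48 (SE 0.41 to 0.43, adjusted p = 0.99). The interval for mir-124-1 ran from -0.43 to 1.45. Of the 447 rows 0 were called (0%), with 13 at an unadjusted p under 0.05 and 3 called by DESeq2. Mouse gRho mice carry 3 leading title numbers, and within them the summed levels were 234 and 216 CPM, 309, 195 and 176 CPM, and 218 and 338 CPM. The human gRHO mice share 1 leading number.

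Saline was 1 mouse, so its comparisons assume that it varies like the others. mir-124-1 had 101 CPM in saline, within the range of uninjected P23H (32.5 to 117 CPM) and of WT (61.6 to 164 CPM). The log2 fold changes of the 3 rows were 0.44 to 0.56 against uninjected P23H (SE 0.59 to 0.62, adjusted p = 0.94 to 0.95) and -0.16 to -0.09 against WT (SE 0.65 to 0.68, adjusted p = 0.996 to 0.997). Those of mouse gRho against saline were -0.45 to -0.38 (SE 0.54 to 0.57, adjusted p = 0.99), and those of human gRHO against saline were 0.03 to 0.13 (SE 0.65 to 0.68, adjusted p = 0.9985). Both human gRHO mice lay above the saline mouse in all 3 rows, as they did without overlap in 39.8% of all rows. In these 4 comparisons 0 of 3 rows were called. The share of all rows called was 0.224% for saline against WT and 0% for the other 3. By DESeq2, 4 rows were called for saline against uninjected P23H, 2 for mouse gRho against saline and 3 for human gRHO against saline, with 11, 7 and 7 rows at an unadjusted edgeR p under 0.05. For saline against WT, DESeq2 called 19 rows, and 33 had an unadjusted edgeR p under 0.05.

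Treated mice were also set against WT. mir-124-1 in mouse gRho (55.6 to 114 CPM, n = 7) overlapped WT (61.6 and 164 CPM), with log2 fold changes of the 3 rows of -0.59 to -0.53 (SE 0.41 to 0.43, adjusted p = 0.51 to 0.54). In this comparison 3.36% of the 447 rows were called, 4 higher and 11 lower in mouse gRho, and 0 of the 3 members were among them. DESeq2 called 38 rows there, and 81 had an unadjusted edgeR p under 0.05. Human gRHO against WT gave -0.11 to -0.03 (SE 0.53 to 0.55, adjusted p = 0.97 to 0.98), with 0 of 3 called beside 0.224% of rows. DESeq2 called 20 rows in that comparison, and 36 had an unadjusted edgeR p under 0.05. Without WT mouse 1 the median of the 3 rows turned to 0.19 in mouse gRho, 0.67 in human gRHO and 0.63 in saline.

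Right eyes were compared with left eyes in the 8 mice that had both, with a term for the mouse. The log2 fold changes were -0.32, -0.32 and -0.33 (SE 0.55 to 0.60, adjusted p = 0.97, edgeR), and 0 of 3 rows were called beside 0% of all rows, with 11 rows at an unadjusted p under 0.05. Without mouse gRho mouse 1 the median of the 3 rows was 0.066.

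**Figure D4:**
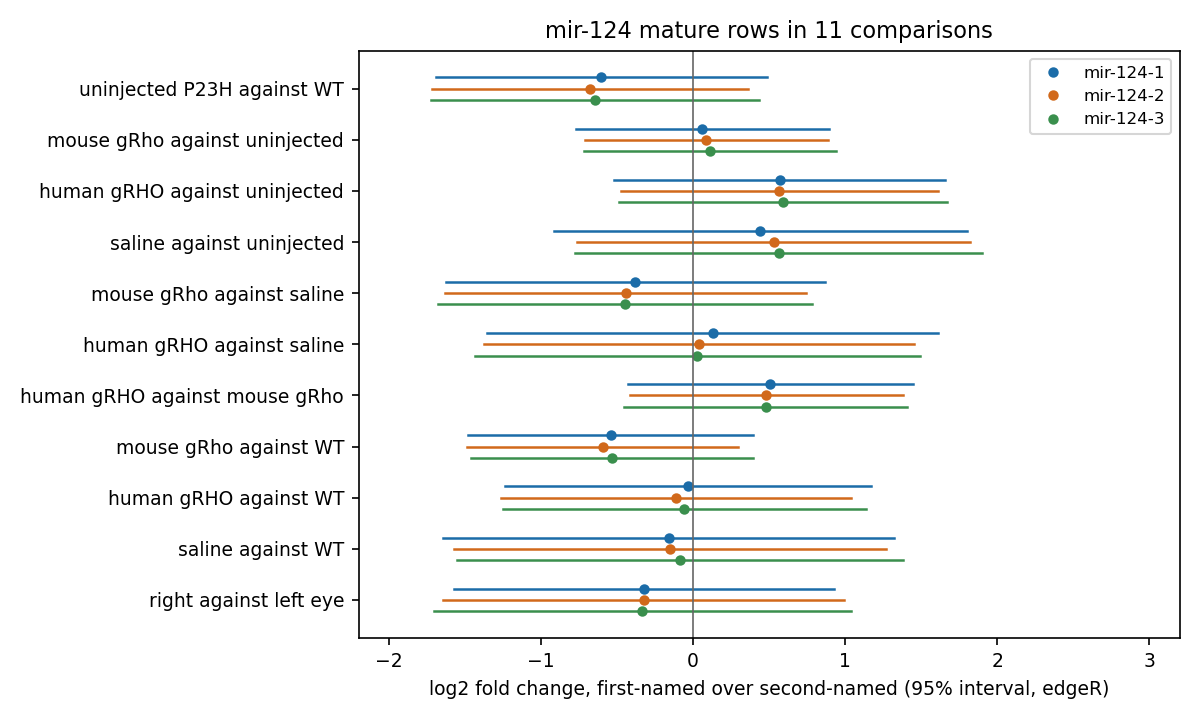
Log2 fold changes of the 3 mir-124 mature rows (points) with 95% intervals (lines, computed from the edgeR F statistic) in 11 comparisons, the first-named group over the second. Each of the 33 intervals includes 0.

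Among loci outside the members, the photoreceptor loci mir-182 and mir-183 had the patterns most like mir-124-1 across the 15 mice. Likeness was Spearman's rho of log2(CPM + 0.5) over the 168 rows whose mean reached 10 CPM, and is given as a description. The coefficient was 0.92 for mir-182 and 0.89 for mir-183, 0.85 for mir-154 (an imprinted-cluster miRNA), 0.85 for mir-3535 and 0.81 for mir-181a-1, a retinal miRNA. The other mir-124 rows had 0.98. The median over the 168 rows was -0.0036. Pearson's r was 0.92 for mir-182 and 0.92 for mir-183, and it was 0.89 and 0.87 in the same order over 13 mice, without uninjected P23H mouse 2 and mouse gRho mouse 6, the mice farthest from the median of mir-124-1. Spearman's rho over those 13 mice was 0.88 for mir-182, 0.84 for mir-183 and 0.88 for mir-181a-1, so the order of these rows was not fixed. The third photoreceptor locus, mir-96, was at rank 10 with a rho of 0.65, and 0.46 over the 13 mice. All points share the library depth of their mouse. For the neuronal loci mir-129-2, mir-132 and mir-9-1, rho was 0.72, 0.40 and 0.18 over the 15 mice, and 0.80, 0.47 and 0.23 over the 13. Pearson's r over the 15 mice was 0.64, 0.70 and 0.53 in the same order.

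In the right eye of mouse gRho mouse 1, which the rank across mice does not use on its own, these rows diverged. mir-181a-1 measured 69.7 CPM in the right eye, against 180 CPM in the left, and mir-3535 measured 38.2 against 48.6 CPM. mir-154 was at 12.4 CPM in the right eye, which was its median over 23 libraries. mir-182 was at -4.14 and mir-183 at -3.45 from the median of 23 libraries (log2), beside -4.46 for mir-124-1.

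**Figure D5:**
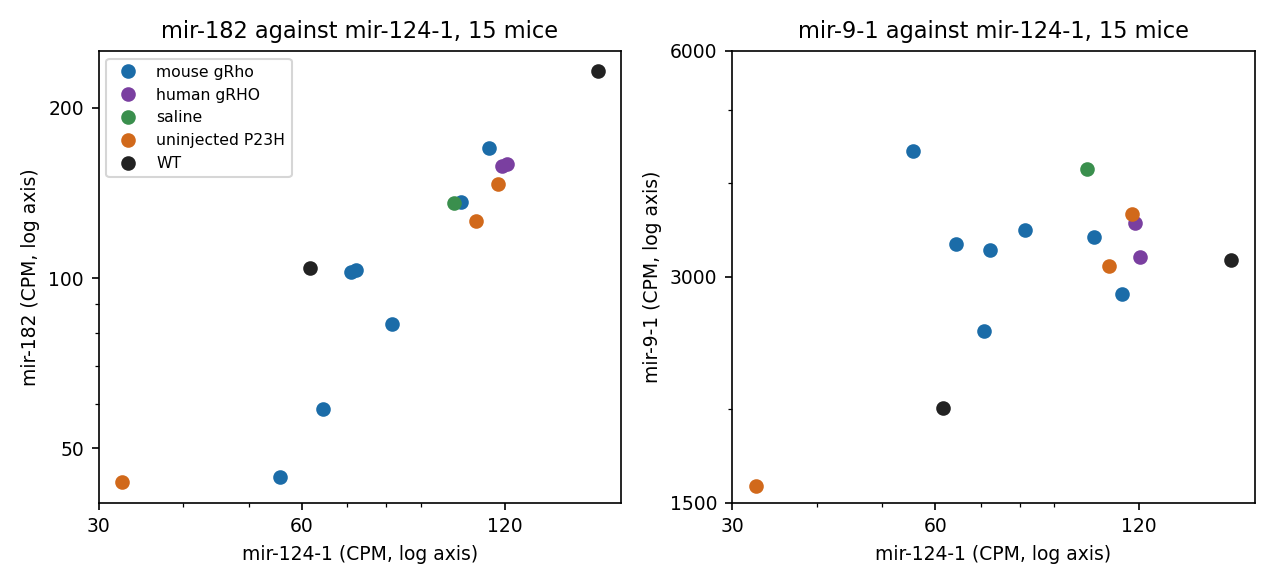
CPM of mir-182 (left) and mir-9-1 (right) against mir-124-1 in 15 mice, both axes log; each point is 1 mouse, coloured by group. The points of mir-182 rise with mir-124-1 (Spearman's rho 0.92, Pearson's r 0.92), and those of mir-9-1 scatter more (0.18 and 0.53 in the same order).

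Loci known mainly from neurons and brain were described by a list of 20 rows, all of which were tested (mir-9, mir-128, mir-129, mir-132, mir-137, mir-138, mir-153, mir-212, mir-218, mir-219a, mir-7a and mir-7b). For uninjected P23H against WT, 8 were higher, 12 lower and 0 past the threshold, with a median log2 fold change of -0.13 beside 0.06 over all rows. For mouse gRho against uninjected P23H, 13 were higher, 7 lower and 0 past the threshold, with a median of 0.31 beside 0.06. For human gRHO against uninjected P23H, 13 were higher, 7 lower and 0 past the threshold, with a median of 0.35 beside -0.09. For right against left eyes, 3 were higher, 17 lower and 0 past the threshold, with a median of -0.23 beside -0.009. That comparison included the right eye of mouse gRho mouse 1, where several of these rows were low and mir-7b and mir-219a-2 were high. The count was not repeated without that mouse. The 3 mir-9 rows have identical mature strands, so the 20 rows are not all separate measurements. Of the 20 rows 4 were two-level, and without them the medians of the group comparisons were -0.13, 0.31 and 0.37 in the same order.

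One row of the list was called in 1 comparison. mir-153, a miRNA of the nervous system that targets transcripts of the synaptic vesicle machinery, fell in mouse gRho against WT, to 0.38 ± 0.20 CPM in mouse gRho (SD, n = 7; 1 to 16 reads a mouse), against 1.63 ± 1.13 CPM in WT (n = 2; 8 and 39 reads). Mouse gRho mice had 0.12 to 0.68 CPM and WT mice 0.83 and 2.43 CPM, without overlap. Of all 447 rows tested, 3.13% were lower in mouse gRho without overlap. The fitted difference was -2.19 on the log2 scale (SE 0.53, adjusted p = 0.046, edgeR), lower in 7 of 7 mice. Without WT mouse 2 it was -1.13 (adjusted p = 0.68), and it passed the threshold in 8 of 19 other fits. The other P23H groups were also below WT in mir-153, by log2 differences of -2.50 in uninjected P23H (adjusted p = 0.089), -1.72 in human gRHO (adjusted p = 0.51) and -1.63 in saline (adjusted p = 0.73), none past the threshold. For mouse gRho against uninjected P23H the difference was 0.31 (adjusted p = 0.98). For mouse gRho against WT the list had 14 rows higher and 6 lower, with a median of 0.22 beside 0.18 over all rows.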

How the data were processed

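Per the labels' protocols, RNA came from flash-frozen retinas by Trizol and went into a NEXT Flex small RNA v3 kit. The authors deposited counts for each miRNA locus, split by annotation class, and counts of aligned reads per class and library. The submitters' processing notes name DESeq2; for aligner, annotation and build, the answer is not given in the sources used here. No column was left unused (0).

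Libraries of 1 mouse were summed. CPM used the mature miRNA total that the alignment table gives. Counts were tested with edgeR 4.0.16 in R 4.3.3 (robust quasi-likelihood, TMM, 5 groups in 1 fit) over the 447 rows that had 10 counts or more in 3 or more mice, with Benjamini-Hochberg adjustment over all of them and a threshold of 0.05. DESeq2 1.42.0 was an alternative. Depth was 6980992 to 25046363 mature reads per mouse. No label says that libraries came from separate animals. The p-values reflect the spread between the sums, part of which may be technical. Two-level rows reached 30 reads and had a gap in sorted log2(CPM + 0.5) of at least 3.5, or of 2 with 2 libraries on each side. The 3 members were named in every comparison, the 5 rows most like mir-124-1 by rho, and neuronal list rows where past the threshold. The members and lists were chosen with earlier results of these data known.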

Additional observations from a re-analysis of the deposited data

Results flagged for a closer look

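The left eye of uninjected P23H mouse 2 stood apart from the other 4 uninjected libraries. Its gap to the next library was 0.731 of the group's range for the sum of the 3 mir-124 rows on the log2 scale, 0.73 for mir-124-1 and 0.788 for mir-124-3. For mir-124-2 the gap was 0.66 and did not pass the check's limit. The 3 rows and their sum are 1 measurement here, and the 5 uninjected libraries come from 3 mice, so they are not independent values. It measured 97.3 CPM for the sum, and the other uninjected libraries measured 262 to 377 CPM. Its photoreceptor loci (198 CPM) were also second lowest of 23 libraries, it was rich in ribosomal RNA, and its vessel loci were second highest. Their part in the low value was not tested.

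Mouse gRho mouse 1 stood apart among the 8 mice with both eyes. Its right eye differed from the left by -5.25 (log2) for the sum of the 3 rows, a gap to the next mouse of 0.864 of the whole range. The 11 mouse gRho libraries are too many for this check, which covered 11 sets of values and picks out about 1 in 20 groups by chance. That rate assumes independent values, and the sets checked here overlap.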

How the results depend on the processing

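None of the 3 mir-124 mature rows passed the threshold in any of 177 other fits over 11 comparisons (lowest adjusted p = 0.28). These were 113 fits with another scaling, filter, test, replicate unit or set of libraries, and 64 that left out 1 mouse. The median log2 fold change of the 3 rows changed sign in 16 of them. For mouse gRho against uninjected P23H it was -0.075 without TMM factors, -0.032 with all aligned reads as library size, -0.011 with each library as a replicate, -0.41 without the rRNA-rich libraries and -0.11 without both libraries lowest for retinal miRNAs. Leaving out the rRNA-rich libraries kept only mouse 1 of uninjected P23H, the highest of that group for the sum (346 CPM). For human gRHO against WT the median of the 3 rows was 0.060 without TMM factors and 0.0032 with all aligned reads. For saline against uninjected P23H it was -0.016 without the rRNA-rich libraries, which set the 1 saline mouse against uninjected mouse 1 alone. Leaving out 1 mouse gave ranges of -1.20 to 0.10 for uninjected P23H against WT, -1.10 to 0.19 for mouse gRho against WT, -0.55 to 0.67 for human gRHO against WT, -0.67 to 0.63 for saline against WT, -0.28 to 0.48 for mouse gRho against uninjected P23H and -0.44 to 0.066 for right against left eye. The cause was not tested. Dropping TMM factors moved the median of all rows by -0.21 to 0.23; relative to that median, the members stood at -0.70 with and -0.71 without TMM factors for uninjected P23H against WT, and at 0.03 and 0.02 for mouse gRho against uninjected P23H.

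Calls over all rows moved more. They numbered 0 to 70 for uninjected P23H against WT (1 in the fit reported) and 3 to 70 for mouse gRho against WT (15), with 70 reached in both without WT mouse 1. DESeq2 called 32 and 38. Chosen after the data were seen, the equal split without the lowest library had a chi-square of 0.855 per degree of freedom. Also chosen then, a fit of precursor rows without TMM factors gave 0 calls for the mir-124-2 and mir-124-3 precursors. No paired analysis was possible because the labels give no replicate number shared between groups; this concerns comparisons between groups, and the eyes were compared with a term for the mouse. With 1 to 7 mice a group, the 95% intervals of mir-124-1 over the 11 comparisons reached from -1.69 to 1.80 on the log2 scale, which limits what could be detected.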

Other observations

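Rncr3, the host transcript of mir-124-1, is described in the mouse retina as a main source of miR-124. Among the precursor rows of these retinas, that of mir-124-1 had the fewest reads (71 of 791) and that of mir-124-2 the most (574 of 791). Neither the precursor reads nor the equal split of the mature rows gives a value for the output of each locus. What counts as a precursor read is not given in the sources used here, and mir-124b lies in the same interval as mir-124-2. Which locus is the main source of miR-124 in these retinas was not tested.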
